A study of Rattus norvegicus with 12 samples.

Results

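Inhibitory ligand-receptor pairs were described here through 8 genes: Cd200 and its receptor gene Cd200r1, Cd47 and its receptor gene Sirpa, the PD-1 ligand genes Cd274 and Pdcd1lg2, and Havcr2 with Lgals9, one of its ligands. The genes were matched by symbol among 32623 genes listed, and each symbol had 1 row. They were chosen by pathway together with earlier fitted fold changes of the same libraries, in which Cd200 stood out with hAMSC. All values and p-values of that contrast are therefore descriptions of these libraries and not independent evidence. Polyadenylated RNA was sequenced from rat liver cells that the labels call primary hepatic stellate cells (HSC). They came from cirrhotic livers, after chronic carbon tetrachloride inhalation, and were separated on a gradient. For 24 h they shared a well, through a Transwell insert, a porous cup that keeps cells apart, with hAEC (human epithelial cells of the amnion), with hAMSC (human mesenchymal stromal cells of the amnion), 15000 viable cells in either case, or with vehicle. All 3 groups come from cirrhotic animals, so no group stands for a healthy liver. There were 4 libraries in each group, named here by their sample numbers: hAEC 3, 4, 11 and 12, hAMSC 7, 8, 15 and 16, and vehicle 17, 18, 19 and 20.

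CD200 is a membrane glycoprotein of endothelial cells, neurons and some lymphocytes, and its receptor on myeloid cells restrains them through the adaptor Dok2 and the Ras GTPase-activating protein Rasa1. CD47, carried by nearly every cell, binds SIRP-alpha on macrophages, which recruits the tyrosine phosphatases Ptpn6 and Ptpn11 and holds back phagocytosis. The products of Cd274 and Pdcd1lg2 restrain T cells through the receptor encoded by Pdcd1, and interferon gamma is a known inducer of Cd274. Havcr2 encodes a checkpoint receptor of T cells and myeloid cells, and galectin-9, the product of Lgals9, is one of several ligands described for it.

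Total counts ran from 27382705 to 34922180 per library after rounding. Over the 2000 genes that varied most, the 8 genes left out, the first principal component took up 73.5% of the variance. It parted the libraries into a lower-numbered set (3, 4, 7, 8, 17 and 18) and a higher-numbered set (11, 12, 15, 16, 19 and 20), each with 2 libraries of every group. The labels do not name these sets. Summed macrophage markers (17 genes measured) lay between 27453 and 30055 CPM, a counts-per-million unit, in the lower-numbered set and between 53030 and 55887 CPM in the higher-numbered set. Gpnmb was the largest part, at 15128 CPM in the lower-numbered and 25396 CPM in the higher-numbered set, and Lyz2 stood at 1109 and 9024 CPM. Cd68 was nearly level, at 1616 and 1663 CPM. Cd14 (973 and 183 CPM), Marco (108 and 41.2 CPM), Clec4f (973 and 825 CPM) and Cd163 (121 and 106 CPM) were higher in the lower-numbered set. The sum is therefore not a measure that all its genes share. Summed markers of stellate cells and myofibroblasts (15 genes) were only 80.7 to 138 CPM over all libraries, most of it from Reln at 39.5, Timp1 at 24.4 and Sparc at 16.6 CPM on average. The myofibroblast actin gene Acta2 averaged 1.88 CPM, the collagen gene Col1a1 2.20 CPM, and Lrat, the retinol storage enzyme of stellate cells, 0.174 CPM. No transcript lengths were used, so levels are compared between libraries and not between genes. In bulk RNA, fewer cells of a type and less RNA per cell cannot be told apart.

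The stretch of the Cd200 promoter window that lies before the annotated gene is shown because Cd200 had the largest rise among the 8 genes, and 2 short stretches of the Lgals9 window are shown because that window held the most motif matches. Both Lgals9 stretches lie within the annotated span of the gene, and the 71 bases of its window before that span held no match. Sequences are from RefSeq on the build GRCr8, whereas the submitters' processing notes name rn6, and 6 of the 8 genes had a promoter window in the table used. Each runs 5′ to 3′ on the strand of the gene, with motif matches in capitals.
Cd200, chr11:68916065-68916199, plus strand: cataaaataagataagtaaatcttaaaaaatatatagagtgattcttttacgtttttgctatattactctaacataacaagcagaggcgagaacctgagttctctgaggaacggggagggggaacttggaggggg
Lgals9, chr10:64428094-64428123, minus strand: GGCTCCTCCCcgtTGAGTCAgtgccaagta
Lgals9, chr10:64428075-64428088, minus strand: ggTTTCTGTTTCct
The 250 bases before each start were searched on both strands for an NF-kB motif (GGG, any 5 bases, CC), an AP-1 motif (TGANTCA), an interferon-stimulated response element (GAAA, any 2 bases, GAAA) and a STAT motif (TTC, any 3 bases, GAA). These motifs were held by 42.3%, 6.34%, 3.41% and 7.67% of all 33469 promoter windows, in that order. The Lgals9 window held 2 NF-kB matches, 1 AP-1 match and 1 response element match, and the Cd47 window 1 NF-kB match. For Cd200, Cd274, Pdcd1lg2 and Havcr2 none of these motifs was found in the window searched, which says nothing of sites elsewhere.

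Cd200 rose with hAMSC. In the lower-numbered set it was at 57.8 and 58.3 CPM in hAMSC 7 and 8, against 45.8 and 43.7 CPM in vehicle 17 and 18. In the higher-numbered set it was at 19.8 and 23.3 CPM in hAMSC 15 and 16, against 14.8 and 12.97 CPM in vehicle 19 and 20. Every hAMSC library lay above every vehicle library of its set, and the ratio of mean CPM was 1.30 in the lower-numbered and 1.56 in the higher-numbered set. In the model that holds both set and group, the log2 fold change was 0.50 (SE 0.07), a 1.41-fold rise with a 95% interval of 1.28 to 1.56 (adjusted p = 0.00496 by the quasi-likelihood test of edgeR, Benjamini-Hochberg over 13539 genes). By p it ranked 4 of all genes tested.

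The receptor gene Cd200r1 rose as well. It was at 106 and 109 CPM in hAMSC 7 and 8, against 78.5 and 79.6 CPM in vehicle 17 and 18, and at 51.4 and 64.7 CPM in hAMSC 15 and 16, against 44.7 and 47.3 CPM in vehicle 19 and 20. The groups did not overlap within either set, although hAMSC 15 lay well below hAMSC 16. The log2 fold change was 0.39 (SE 0.07), or 1.31-fold with a 95% interval of 1.19 to 1.45 (adjusted p = 0.0277, edgeR with Benjamini-Hochberg). Every deposited count of Cd200r1 was fractional, which means that reads were shared with another gene. Its neighbour Cd200r1l, a related receptor gene on chromosome 11, had a log2 fold change of 0.04 and did not pass (edgeR with Benjamini-Hochberg, adjusted p = 0.941). With the counts of both summed, an alternative chosen after the data were seen, the log2 fold change was 0.32 (SE 0.06; edgeR with Benjamini-Hochberg, adjusted p = 0.0277).

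**Figure D1:**
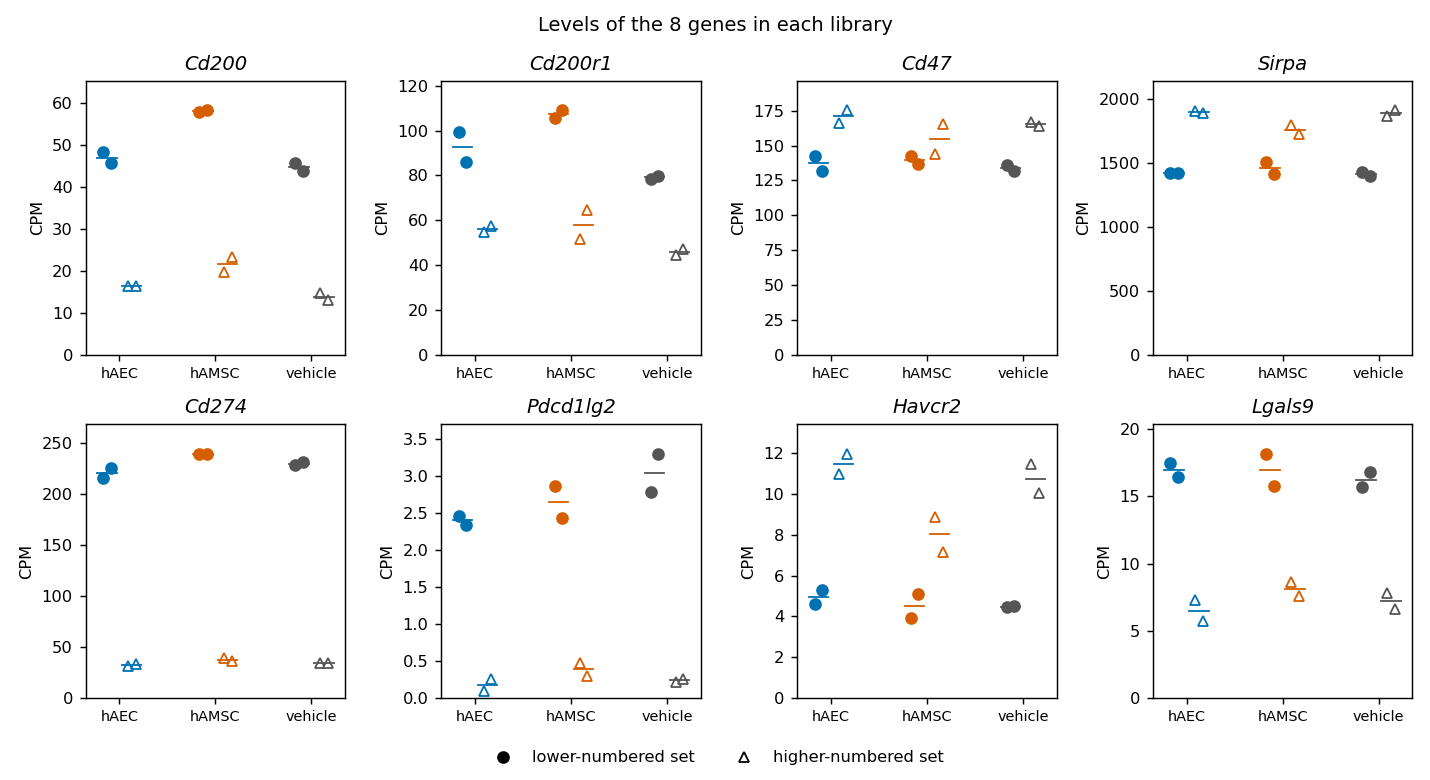
Level of each of the 8 genes in CPM (vertical axes, from 0) in every library of the hAEC, hAMSC and vehicle groups, with filled circles for the lower-numbered and open triangles for the higher-numbered set and a short line for each mean of 2 libraries. Cd200 and Cd200r1 are higher in hAMSC than in vehicle libraries within both sets, and Cd274 differs far more between the sets, 229.5 against 34.7 CPM on average, than between treatments.

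The call for Cd200r1 was less firm than that for Cd200. With each library left out in turn, Cd200 passed in 12 of 12 fits, with an adjusted p of 0.00428 to 0.0241 by edgeR with Benjamini-Hochberg, and Cd200r1 in 5 of 12. By the same test Cd200r1 lost the call without hAEC 11 (adjusted p = 0.0523), hAMSC 8 (0.108), hAMSC 16 (0.0991), vehicle 17 (0.0795), vehicle 18 (0.112), vehicle 19 (0.113) or vehicle 20 (0.078), and its log2 fold change stayed between 0.35 and 0.46. Without the hAEC libraries, with the 2 groups alone, Cd200r1 also lost the call (log2 0.39; edgeR with Benjamini-Hochberg, adjusted p = 0.058), and Cd200 kept it (adjusted p = 0.0407). Fitted within the higher-numbered set alone, Cd200r1 did not pass (log2 0.33; edgeR with Benjamini-Hochberg, adjusted p = 0.345), while Cd200 passed in both sets (log2 0.38 and 0.63; adjusted p = 0.0231 and 0.0234). With the set left out of the model neither gene passed, at 0.44 ± 0.58 and 0.40 ± 0.31 (log2 fold change ± SE; edgeR with Benjamini-Hochberg, adjusted p = 1.0 for both).

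**Figure D2:**
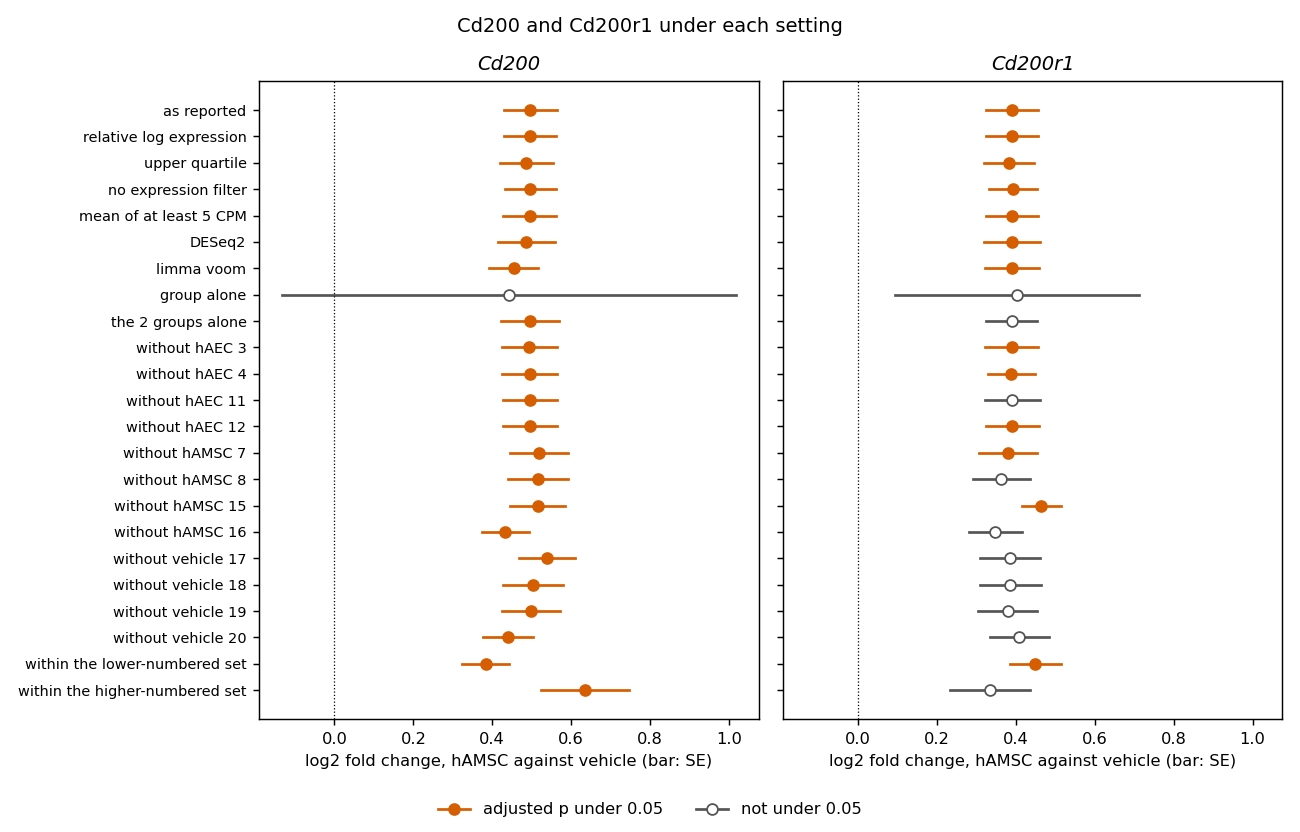
Log2 fold change of Cd200 (left) and Cd200r1 (right) for hAMSC against vehicle, with the SE as a bar, as reported (top) and under each other setting; filled points had an adjusted p under 0.05. All points lie above 0, and the wide bars belong to the fit without the library set.

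Of the 8 genes 2 were called for hAMSC against vehicle, where 0.236% of all genes tested were called, 0.155% as higher and 0.0812% as lower. Since the genes were chosen with this contrast known, nothing is read from that share. The median log2 fold change of the 8 genes was 0.09, against -0.0027 over all genes. The 8 genes did not move as a block, and the 6 others lay within 0.22 log2 units of 0.

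With hAEC none of the 8 genes passed, and the CD200 pair had the smallest p-values among them. Cd200r1 was at 99.2 and 85.8 CPM in hAEC 3 and 4, against 78.5 and 79.6 CPM in vehicle 17 and 18, and at 54.6 and 57.3 CPM in hAEC 11 and 12, against 44.7 and 47.3 CPM in vehicle 19 and 20. No hAEC library overlapped the vehicle libraries of its set. The log2 fold change was 0.25 (SE 0.07), with a 95% interval of 0.11 to 0.40 (edgeR with Benjamini-Hochberg, adjusted p = 0.86). Cd200 was at 48.4, 45.7, 16.3 and 16.4 CPM in hAEC 3, 4, 11 and 12 and overlapped vehicle in the lower-numbered set (log2 0.15, SE 0.07; edgeR with Benjamini-Hochberg, adjusted p = 0.881). The edgeR test called 0 of 13539 genes for hAEC against vehicle, or 0%, with 759 at an unadjusted p under 0.05, while limma voom called 0 and DESeq2 2. Among the 8 genes these counts were 0 by edgeR, 2 unadjusted, 0 by limma voom and 0 by DESeq2.

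Set directly against each other, hAEC libraries had less Cd200 than hAMSC libraries without passing the test over all genes. The values were 48.4 and 45.7 CPM with hAEC against 57.8 and 58.3 CPM with hAMSC in the lower-numbered set, and 16.3 and 16.4 CPM against 19.8 and 23.3 CPM in the higher-numbered set. Neither set had an overlap. The log2 difference was -0.35 (SE 0.07; 95% interval -0.49 to -0.21; edgeR with Benjamini-Hochberg, adjusted p = 0.0842). It passed without hAMSC 7 (adjusted p = 0.0394), with no expression filter (0.00645) and with DESeq2 (0.00119), each with Benjamini-Hochberg adjustment. For Cd200r1 the difference was -0.14 (SE 0.07), with an interval of -0.28 to 0.0036, which reaches just past 0. Of the 8 genes edgeR called 0 in this comparison, where it called 3 of 13539 genes (0.0222%). At an unadjusted p under 0.05 there were 3 of the 8 and 862 of all genes (6.37%). limma voom called 0 of the 8 and 4 of all genes, and DESeq2 called 1 of the 8 and 79 of all genes.

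The PD-1 ligand gene Cd274 differed little between treatments. It was at 215 and 226 CPM in hAEC 3 and 4, at 238 and 239 CPM in hAMSC 7 and 8, and at 228 and 230.5 CPM in vehicle 17 and 18. In the higher-numbered set it was at 31.3 and 33.2 CPM in hAEC 11 and 12, at 38.7 and 36.0 CPM in hAMSC 15 and 16, and at 34.5 and 34.6 CPM in vehicle 19 and 20. In both sets the order was hAEC, vehicle, hAMSC with no overlap between groups. The log2 fold change was 0.08 (SE 0.04) for hAMSC and -0.08 (SE 0.04) for hAEC against vehicle, and -0.16 (SE 0.04) between hAEC and hAMSC. None of these passed (edgeR with Benjamini-Hochberg, adjusted p = 0.508, 0.897 and 0.176). Cd200, Cd200r1 and Cd274 were higher with hAMSC than with vehicle without overlap in both sets, as were 3.94% of all genes, and none of the 8 was lower in this way (4.49% of all). Cd200r1 was higher and Cd274 lower with hAEC than with vehicle by the same reading, where all genes gave 4.39% higher and 3.6% lower. Cd200 and Cd274 were lower with hAEC than with hAMSC, and none of the 8 higher, where all genes gave 3.83% lower and 3.69% higher.

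Pdcd1lg2, the gene of the other PD-1 ligand and the direct neighbour of Cd274 on chromosome 1, was measured with few counts. It had 73 and 74 counts in hAEC 3 and 4, 100 and 79 in hAMSC 7 and 8, and 77 and 102 in vehicle 17 and 18. In the higher-numbered set the counts were 3 and 8 with hAEC, 14 and 8 with hAMSC, and 6 and 7 with vehicle. The 95% interval of the log2 fold change ran from -0.93 to 0.23 for hAEC and from -0.48 to 0.67 for hAMSC against vehicle. Changes within these ranges are therefore not excluded. Pdcd1, the receptor gene of both ligands, averaged 0.161 CPM and did not reach the count needed for testing.

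The CD47 and SIRP-alpha genes had log2 fold changes within 0.06 of 0 in all 3 comparisons. Cd47 was at 143 and 132 CPM in hAEC 3 and 4, 143 and 137 CPM in hAMSC 7 and 8, and 136 and 132 CPM in vehicle 17 and 18. In the higher-numbered set it was at 166 and 175 CPM with hAEC, 144 and 165 CPM with hAMSC, and 167 and 164 CPM with vehicle. Only hAMSC 15 stood below the others there. Sirpa was at 1422 and 1417 CPM in hAEC 3 and 4, 1509 and 1411 CPM in hAMSC 7 and 8, and 1429 and 1399 CPM in vehicle 17 and 18. In the higher-numbered set it was at 1905 and 1891 CPM with hAEC, 1793 and 1726 CPM with hAMSC, and 1869 and 1911 CPM with vehicle, the hAMSC libraries lying lowest. For hAMSC against vehicle the 95% intervals allow a change of 0.918-fold to 1.07-fold for Cd47 and of 0.926-fold to 1.04-fold for Sirpa, and for hAEC against vehicle 0.956-fold to 1.11-fold and 0.948-fold to 1.06-fold. Neither gene passed in any of the 3 comparisons (edgeR with Benjamini-Hochberg, adjusted p of 0.862 or more).

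Havcr2 and Lgals9 did not pass either. Havcr2 was at 4.59 and 5.30 CPM in hAEC 3 and 4, 3.93 and 5.08 CPM in hAMSC 7 and 8, and 4.44 and 4.53 CPM in vehicle 17 and 18. There the hAEC libraries lay just above vehicle, and hAMSC overlapped both. In the higher-numbered set it was at 10.99 and 11.996 CPM with hAEC, 8.90 and 7.15 CPM with hAMSC, and 11.5 and 10.05 CPM with vehicle, where both hAMSC libraries were the lowest. Between hAEC and hAMSC the log2 difference was 0.33 (SE 0.12; edgeR with Benjamini-Hochberg, adjusted p = 0.593), and between hAMSC and vehicle -0.22 (SE 0.12; adjusted p = 0.591). Lgals9 lay between 15.7 and 18.2 CPM in the lower-numbered and between 5.70 and 8.63 CPM in the higher-numbered set, and its groups overlapped in each set for both co-cultures against vehicle.

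**Figure D3:**
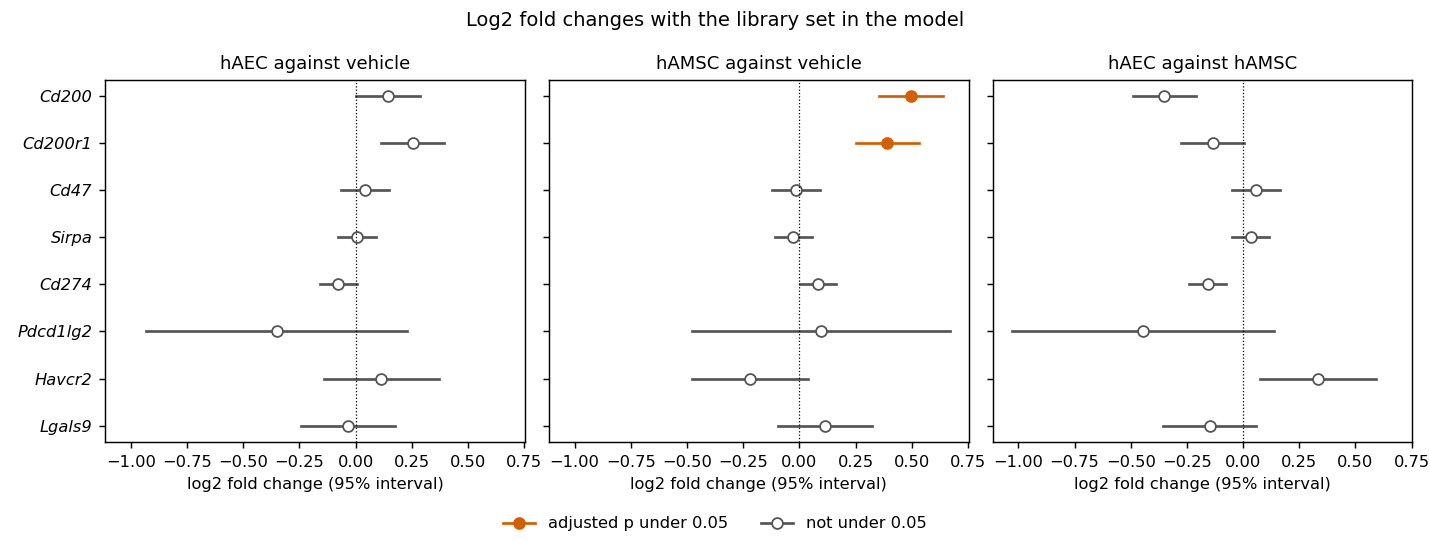
Log2 fold change with 95% interval of the 8 genes for each co-culture set against vehicle and for the co-cultures set against each other, from the model with the library set; filled points had an adjusted p under 0.05. Only Cd200 and Cd200r1 with hAMSC passed, and Pdcd1lg2 has the widest intervals.

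Whether the effect of a co-culture differed between the library sets was tested as an interaction. For hAMSC the log2 fold change of Cd200 was 0.26 (SE 0.12) larger in the higher-numbered than in the lower-numbered set, which did not pass (edgeR with Benjamini-Hochberg, adjusted p = 0.499). Sirpa had a difference of -0.15 (SE 0.07; adjusted p = 0.486) and Havcr2 of -0.43 (SE 0.22; adjusted p = 0.555), both by edgeR with Benjamini-Hochberg. Of the 8 genes edgeR called 0, with 1 at an unadjusted p under 0.05 and 0 by limma voom and by DESeq2. Of all genes edgeR called 0.199%, 0.17% with a larger and 0.0295% with a smaller log2 fold change in the higher-numbered set. At an unadjusted p under 0.05 there were 1358 of all 13539 genes for hAMSC, and limma voom called 4 and DESeq2 102. For hAEC edgeR called 0 of the 8 and 0% of all genes. At an unadjusted p under 0.05 there were 0 of the 8 and 731 of all genes for hAEC, limma voom called 0 of either, and DESeq2 called 0 of the 8 and 24 of all.

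The library sets differed far more than the treatments in most of the 8 genes. These differences are descriptions without a test, since the sets were found in the expression of the same libraries. Pdcd1lg2 averaged 2.69 CPM in the lower-numbered and 0.264 CPM in the higher-numbered set, a ratio of 10.2, and Cd274 averaged 229.5 and 34.7 CPM, a ratio of 6.61. Cd200 was higher in the lower-numbered set by a factor of 2.90, Lgals9 by 2.30 and Cd200r1 by 1.74. Havcr2 was higher in the higher-numbered set by a factor of 2.17, Sirpa by 1.29 and Cd47 by 1.20. The sets did not overlap in any of the 8 genes. Among all genes 28% lay higher in the lower-numbered set without overlap and 26.9% higher in the higher-numbered set, so separation of the sets is common in these libraries. Both PD-1 ligand genes and both genes of the CD200 pair lay higher in the lower-numbered set, and Cd47 and Sirpa both higher in the higher-numbered set. Lgals9 and Havcr2 lay on opposite sides. With separation this common, nothing is read from these sides.

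**Figure D4:**
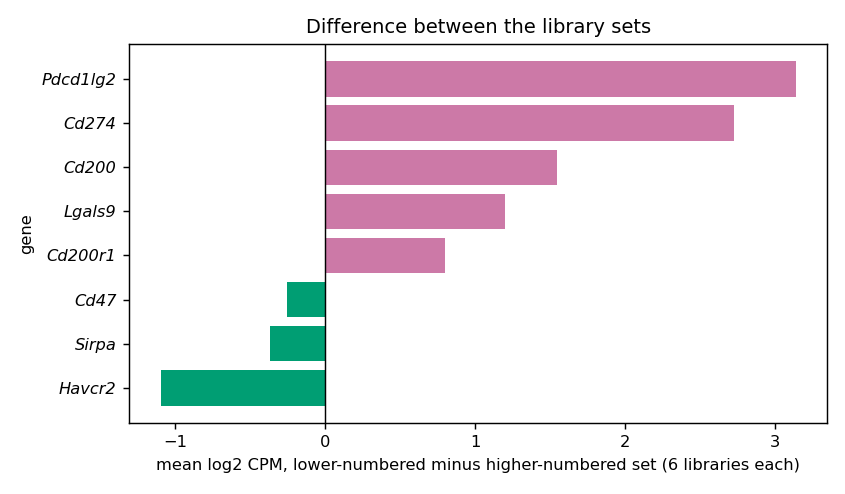
Difference in mean log2 CPM (lower-numbered minus higher-numbered set, 6 libraries each) for the 8 genes. Bars to the right mark genes higher in the lower-numbered set, led by Pdcd1lg2 at 3.14 and Cd274 at 2.73, and bars to the left genes higher in the higher-numbered set, led by Havcr2 at -1.09.

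Genes that act around these pairs were read from 4 lists. Of 13 inhibitory signalling genes, which include Dok2, Rasa1, Ptpn6, Ptpn11 and the lipid phosphatase gene Inpp5d, none passed in any comparison by edgeR with Benjamini-Hochberg, by limma voom or by DESeq2. At an unadjusted p under 0.05 there were 0 for hAEC and 3 for hAMSC against vehicle, and 3 between hAEC and hAMSC. Of all genes tested 5.61%, 9.68% and 6.37% were under 0.05 in these comparisons, in that order, and the counts of the other lists stand beside the same shares. Among the smallest p-values were those of the Src family kinase gene Lyn (log2 0.07) and the adaptor gene Dok3 (-0.13) for hAEC against vehicle, of the kinase gene Fyn (-0.09) for hAMSC against vehicle, and of Inpp5d (0.12) between hAEC and hAMSC. The list median for hAMSC against vehicle was 0.03, beside -0.0027 over all genes.

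Of all genes tested 0.155% were called as higher with hAMSC than with vehicle. Among 23 other inhibitory receptor genes tested, of 29 listed, 1 rose with hAMSC. This was Fcgr2b, the inhibitory Fc receptor for immunoglobulin G, which averaged 1150 CPM with hAMSC and 965 CPM with vehicle (log2 0.35, SE 0.05; edgeR with Benjamini-Hochberg, adjusted p = 0.013). It was also lower with hAEC than with hAMSC (-0.35, SE 0.05; adjusted p = 0.0421 by the same test), where 0.0222% of all genes were called as lower. Cd300a, an inhibitory receptor of myeloid cells, had the next smallest p for hAMSC against vehicle (0.11), and Siglec10, a sialic acid binding lectin, for hAEC against hAMSC (-0.22), and neither passed. For hAEC against vehicle the C-type lectin receptor genes Clec4a (0.09) and Clec4a3 (0.12) were nearest and none passed, with 0 at an unadjusted p under 0.05 and 0 by limma voom and DESeq2. At an unadjusted p under 0.05 there were 5 of the 23 for hAMSC against vehicle (9.68% of all genes). Between hAEC and hAMSC there were 4 (6.37% of all genes). For hAMSC against vehicle limma voom called 1 and DESeq2 1 of the list, and 35 and 157 of all genes. Between hAEC and hAMSC they called 0 and 1 of the list, and 4 and 79 of all genes. The list median for hAMSC against vehicle was 0.06. Siglec10 and Fcgr2b were, like Cd200, higher in the lower-numbered set, at 141 against 6.76 CPM and 1762 against 299 CPM. The list as a whole went both ways. Clec4a and Clec4a3 were lower in the lower-numbered set, at 20.4 against 78.9 CPM and 100 against 305 CPM, and Cd300a was nearly level, at 160 against 157 CPM.

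No gene among 17 other ligands and partners tested, of 23 listed, passed by edgeR with Benjamini-Hochberg, limma voom or DESeq2 in any comparison. At an unadjusted p under 0.05 there were 0 for hAEC against vehicle (5.61% of all genes), 2 for hAMSC against vehicle (9.68% of all genes) and 1 for hAEC against hAMSC (6.37% of all genes). Nearest were the B7 family gene Icoslg (0.13) and the galectin gene Lgals8 (0.05) for hAEC against vehicle, and the costimulatory receptor gene Cd40 (0.47) and the B7 family gene Cd276 (0.09) for hAMSC against vehicle. Between hAEC and hAMSC they were Cd40 (-0.48) and Lrp1 (-0.18), a receptor of apoptotic cell uptake. Of 18 genes of the interferon gamma axis and other controls of Cd274, edgeR called 0 in each comparison. Cmtm6, whose product keeps the Cd274 protein at the cell surface, was closest for hAMSC against vehicle, at 541 against 488 CPM (log2 0.16, SE 0.03; edgeR with Benjamini-Hochberg, adjusted p = 0.0504), followed by Hif1a (0.18). For this list and comparison 4 genes were at an unadjusted p under 0.05 (9.68% of all genes were), limma voom called 1 and DESeq2 2. Cmtm6 (0.07) and Jak2 (0.08) were nearest for hAEC against vehicle, where 1 gene was at an unadjusted p under 0.05 (5.61% of all genes), and Stat3 (-0.13) and Cmtm6 (-0.09) for hAEC against hAMSC, where 6 were (6.37% of all genes). For these 2 comparisons limma voom and DESeq2 called 0. Ifng itself averaged 0.0244 CPM.

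The genes most like Cd200 across the 12 libraries, by the root mean square difference in log2 CPM after centring each set, were Ccl6, Tspan7, Adora2a, Pcsk1 and Serpinb9. Their differences from Cd200 were 0.098, 0.0981, 0.105, 0.11 and 0.113 log2 units, where the median of 9248 genes was 0.241. A gene that did not vary at all within the sets would differ from Cd200 by 0.227, so the median largely restates the spread of Cd200 itself. Ccl6 encodes a chemokine, Tspan7 a tetraspanin, Adora2a an adenosine receptor, Pcsk1 a prohormone convertase and Serpinb9 a serine protease inhibitor. Cd200r1 stood at place 16 with 0.137. Likeness was read over the same libraries that show the rise with hAMSC, so the rise of these genes is not a separate result.

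**Figure D5:**
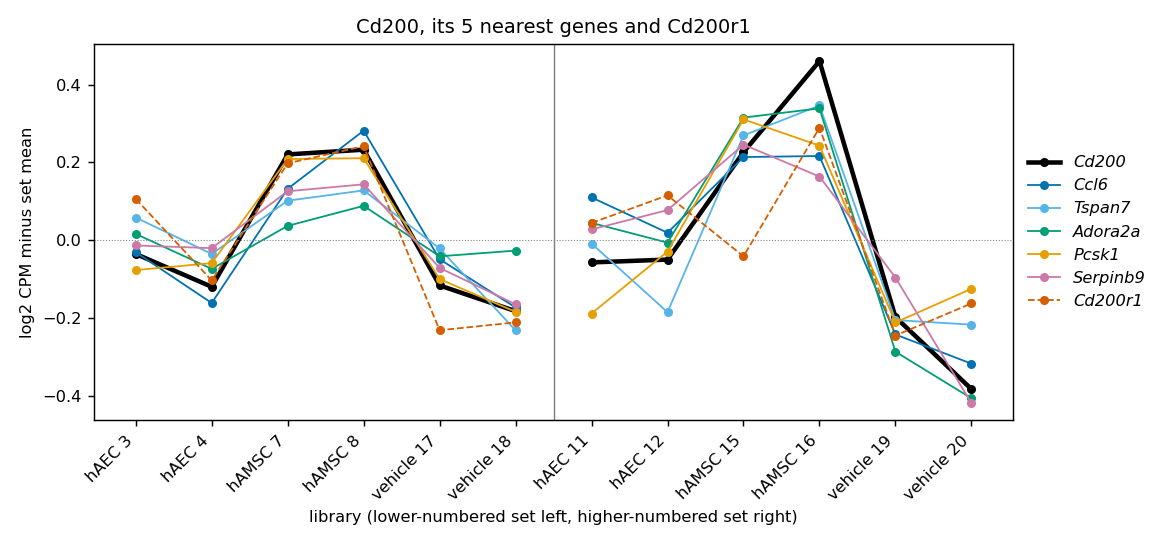
Log2 CPM minus the mean of the library set (vertical axis) of Cd200, its 5 nearest genes and Cd200r1 in each library, with the lower-numbered set left and the higher-numbered set right of the grey line. Cd200 lies above 0 in all 4 hAMSC libraries and below 0 in all 4 vehicle libraries, and hAMSC 16 is its highest point.

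Other cell types can carry Cd200, so marker lists are set beside its rise. Endothelial markers summed to 673 and 816 CPM in the hAMSC libraries of the lower-numbered set, against 763 and 797 CPM with vehicle, and to 499 and 564 CPM in the higher-numbered set, against 413 and 425 CPM with vehicle. With hAEC they summed to 681 and 694 CPM in the lower-numbered and 402 and 408 CPM in the higher-numbered set. The median of the 14 endothelial genes tested was 0.28 log2 units higher with hAMSC than with vehicle, and none passed by edgeR, with 2 at an unadjusted p under 0.05 (9.68% of all genes were), 0 by limma voom and 1 by DESeq2. For hAEC against vehicle the 2 lay on opposite sides of 0, with a log2 fold change of 0.15 for Cd200 and an endothelial median of -0.14. In that comparison edgeR, limma voom and DESeq2 each called 0 of the 14, with 2 at an unadjusted p under 0.05 (5.61% of all genes were). Between hAEC and hAMSC, where the log2 difference of Cd200 was -0.35, the endothelial median was -0.39. None of the 14 passed there by edgeR, with 9 at an unadjusted p under 0.05 (6.37% of all genes were), 0 by limma voom and 2 by DESeq2. The largest parts of the endothelial sums were Tie1 at 176, Eng at 143 and Cdh5 at 112 CPM on average. Vwf averaged 7.42, Flt1 4.43, Stab2 0.998, Emcn 0.840 and Clec4g 0.438 CPM, and none of the endothelial genes measured was at 0 throughout. The part of endothelial cells in the differences of Cd200 was not tested. Dendritic cell markers (8 genes) summed to 527 and 529 CPM with hAMSC against 476 and 499 CPM with vehicle in the lower-numbered set. They overlapped in the higher-numbered set, at 569 and 631 CPM against 582 and 593 CPM. With hAEC they summed to 493 and 494 CPM in the lower-numbered and 573 and 593 CPM in the higher-numbered set. Itgax made up most of the dendritic cell sums, at 508 CPM on average, followed by Ccr7 at 23.1 CPM. Flt3 averaged 1.99, Clec9a 1.69 and Xcr1 0.0101 CPM, so these sums mainly follow 1 gene. Lymphocyte markers (12 genes) summed to 408 and 455 CPM with hAMSC, 417 and 438 CPM with hAEC and 406 and 433 CPM with vehicle in the lower-numbered set. They summed to 1602 and 1603 CPM with hAMSC, 1677 and 1685 CPM with hAEC and 1695 and 1722 CPM with vehicle in the higher-numbered set. Most of these sums was Cd4, which rat macrophages also carry, at 1021 CPM on average, followed by Lck at 14.9, Cd2 at 3.96 and Nkg7 at 2.69 CPM. The T cell receptor complex genes Cd3d and Cd3e averaged 0.133 and 0.431 CPM, and the B cell genes Ms4a1 and Cd79a 0.0244 and 0.0716 CPM. The part of these cell types in the results was not tested.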

How the data were processed

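RSEM's expected counts per gene, deposited by the authors, were read for 12 libraries. The submitters' processing notes name STAR, RSEM, FastQC, Trim Galore and limma and the builds rn6 and Rnor_6.0. Their versions and roles, and the strand setting of the counting, are not given in the sources used. Per the labels' protocols the mRNA kit was stranded. Counts were rounded and fitted in R 4.3.3 with edgeR 4.0.16. filterByExpr kept 13539 genes, and TMM factors were 0.973 to 1.03. A robust quasi-likelihood model held library set and group, with two-sided tests, Benjamini-Hochberg adjustment over all genes tested and a threshold of 0.05. SEs are the log2 fold change over the root of F, and CPM use TMM-scaled totals. limma 3.58.1 (voom) and DESeq2 1.42.0 were alternatives. The script was tested on simulated data.

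The members, lists and model, the library set included, were chosen with earlier results of these data known. Named list genes are those that passed or had the 2 smallest p-values. Genes like Cd200 needed a mean of 5 CPM. No label ties a library to a rat or a culture, so the p-values reflect only how far these libraries spread, which may be technical. No 2 libraries were duplicates. Listed genes missing from the files used were not analysed here. Some genes that the naming rule covers are not reported here.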

Additional observations from a re-analysis of the deposited data

How the results depend on the processing

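Of 603 values of the 8 genes under other settings, 568 kept their direction and side of the threshold, 11 lost a call, 3 gained one and 21 turned in sign, none of which had passed the test. Sirpa turned to -0.0015 with upper quartile scaling for hAEC against vehicle, and its set difference for hAEC to -0.0011 with relative log expression, -0.00019 with no expression filter and -0.0011 with DESeq2. Pdcd1lg2 for hAMSC against vehicle turned to -0.11 with limma voom and -0.11 with the group alone. Within the lower-numbered set hAMSC against vehicle gave 0.073 for Cd47, 0.054 for Sirpa, -0.19 for Pdcd1lg2 and 0.012 for Havcr2, hAEC against vehicle gave 0.068 for Lgals9, and hAEC against hAMSC gave -0.029 for Cd47 and -0.042 for Sirpa. With 1 library left out, hAEC against vehicle ran from -0.012 to 0.022 for Sirpa and -0.084 to 0.053 for Lgals9, and hAMSC against vehicle from -0.051 to 0.042 for Cd47, -0.068 to 0.0016 for Sirpa and -0.10 to 0.28 for Pdcd1lg2. The cause was not tested.

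Genes called numbered 0 for hAEC against vehicle, 32 for hAMSC against vehicle and 3 for hAEC against hAMSC. No expression filter gave 52 for hAMSC against vehicle and 26 for hAEC against hAMSC, and set differences of 309 for hAEC and 533 for hAMSC. DESeq2 gave 2, 157 and 79 in the first order, and set differences of 24 for hAEC and 102 for hAMSC. limma voom gave 4 for the set difference of hAMSC. The group alone gave 0 and 0 for the hAMSC comparisons. The 2 groups alone gave 10 for hAEC and 9 for hAMSC against vehicle. Within the lower-numbered set the counts were 1, 86 and 1, and within the higher-numbered set 6, 94 and 58. Leaving out 1 library gave 8 (vehicle 18) to 153 (hAMSC 15) for hAMSC against vehicle and 0 (hAEC 3, hAMSC 8 or hAMSC 15) to 50 (hAMSC 7) for hAEC against hAMSC. For hAMSC against vehicle every left-out library but hAEC 12 (34 genes) moved the count by over 1.5 times, to 15 without hAEC 3, 13 without hAEC 4, 12 without hAEC 11, 56 without hAMSC 7, 13 without hAMSC 8, 9 without hAMSC 16, 21 without vehicle 17, 12 without vehicle 19 and 11 without vehicle 20. For hAEC against hAMSC it moved as far to 1 without hAEC 4, hAEC 12 or hAMSC 16 and to 5 without vehicle 19. For hAEC against vehicle it stayed at 0. No paired analysis was possible because the groups share no sample numbers. At 3 to 14 counts per library, Pdcd1lg2 in the higher-numbered set was measured with low precision.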
